A study of Mus musculus with 12 samples.

Results

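Retinoic acid is made from vitamin A inside the cell, and 9 genes of its synthesis, binding and breakdown were followed in wounded skin of diabetic mice. They are Stra6, Rdh10, Dhrs9, Aldh1a1, Aldh1a2, Aldh1a3, Crabp1, Crabp2 and Cyp26b1, 9 of the 29956 named genes in the deposited table, and each matched 1 row by its symbol. Aldh1a2 was chosen by its level in these same libraries, which was higher with S. aureus than with vehicle. Its values in that contrast, and in the other contrast that holds the S. aureus libraries, are therefore given as a description with no test. The other 8 were taken as its pathway, with earlier results of these data known.

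All 12 mice, 4 in each group, were B6.BKS(D)-Leprdb/db. Such animals lack a working leptin receptor and become obese and diabetic. The data hold no wounds of mice without diabetes. Full-thickness punch wounds in the back received Staphylococcus aureus, a Gram-positive skin pathogen, Alcaligenes faecalis, a Gram-negative bacterium, or vehicle. Per the labels the bacteria were given in PBS and the vehicle was PBS to which glycerol had been added. Whole wound skin was taken on day 3 and its ribosome-depleted total RNA was sequenced. Ages and sexes of the animals are not in the labels used here.

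Retinol enters some cells through the membrane protein STRA6, is oxidised to retinal by dehydrogenases such as RDH10 and DHRS9, and is then oxidised irreversibly to retinoic acid by the ALDH1A enzymes. In the cytosol retinoic acid is bound by CRABP1 and CRABP2, in the nucleus it acts through the retinoic acid receptors, and CYP26 enzymes break it down. In skin it is known for its effects on keratinocyte differentiation, hair follicles and sebaceous glands.

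The sequences before the start sites of the member with the largest difference and of the other members called with S. aureus against vehicle are shown so that their motifs can be compared. They are 250 bases ending just before the RefSeq start site, on build GRCm38.p6 and not the GRCm39 build that the submitters' processing notes name, read 5′ to 3′ on the plus strand, which is the coding strand of all 3 genes. Capitals mark matches on either strand to AGGTCA or AGTTCA, which are half-sites bound by retinoic acid receptors, to TGANTCA, the AP-1 motif, or to TATAAA.
Aldh1a2, chr9:71215539-71215788: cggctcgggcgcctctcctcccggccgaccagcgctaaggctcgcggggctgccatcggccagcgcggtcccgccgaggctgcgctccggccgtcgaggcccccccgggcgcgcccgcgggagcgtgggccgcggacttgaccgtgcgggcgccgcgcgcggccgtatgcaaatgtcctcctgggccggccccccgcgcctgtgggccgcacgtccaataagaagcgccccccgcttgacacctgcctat
Dhrs9, chr2:69380212-69380461: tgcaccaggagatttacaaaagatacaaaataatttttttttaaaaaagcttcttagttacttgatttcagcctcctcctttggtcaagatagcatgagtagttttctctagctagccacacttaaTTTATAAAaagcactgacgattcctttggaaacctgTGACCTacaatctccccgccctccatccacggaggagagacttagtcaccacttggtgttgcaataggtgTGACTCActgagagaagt
Aldh1a1, chr19:20601718-20601967: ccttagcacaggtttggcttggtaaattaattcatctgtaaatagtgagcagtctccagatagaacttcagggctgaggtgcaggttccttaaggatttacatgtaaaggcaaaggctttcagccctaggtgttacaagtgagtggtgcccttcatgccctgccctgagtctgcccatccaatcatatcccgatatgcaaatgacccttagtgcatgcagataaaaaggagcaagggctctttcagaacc
The Aldh1a2 stretch held none of these letters and had a GC content of 77.6%, against 40.4% for Dhrs9 and 46.4% for Aldh1a1. The Dhrs9 stretch held 1 AGGTCA on the reverse strand 82 bases before the start, 1 TGANTCA 11 bases before it, and 2 overlapping TATAAA matches on opposite strands. Of 32536 stretches of 250 bases before RefSeq start sites, AGGTCA stood in 4567 (14%), AGTTCA in 11.8%, TGANTCA in 6.73% and TATAAA in 12.3%. Sequences were at hand for 6 of the 9 members with 10 start sites, Stra6, Crabp1 and Cyp26b1 being the others. Outside the 3 stretches printed, they held 1 TGANTCA before another Aldh1a1 start and 1 TATAAA before Cyp26b1. Aldh1a3, Rdh10 and Crabp2 had no entry.

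With S. aureus, Aldh1a2 was high and Aldh1a1 low, Dhrs9 was above its vehicle level, and Crabp1 and Crabp2 stood above their A. faecalis levels. With A. faecalis, no member differed from vehicle at the threshold. Levels are CPM, estimated counts relative to a library size adjusted with TMM, the trimmed mean of M-values. A gene was called when its two-sided edgeR quasi-likelihood p, Benjamini-Hochberg adjusted over 18218 genes tested, was under 0.05. Library totals were 38.4 to 58.4 M (mega) estimated counts with S. aureus, 42.2 to 71.3 M with A. faecalis and 51.9 to 62.4 M with vehicle. Basal keratinocyte and fibroblast markers were present in all 12 libraries. Vehicle replicate 3 stood apart, with adipocyte markers summing to 8120 CPM where the other vehicle libraries had 1980 to 2630 CPM.

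**Figure D1:**
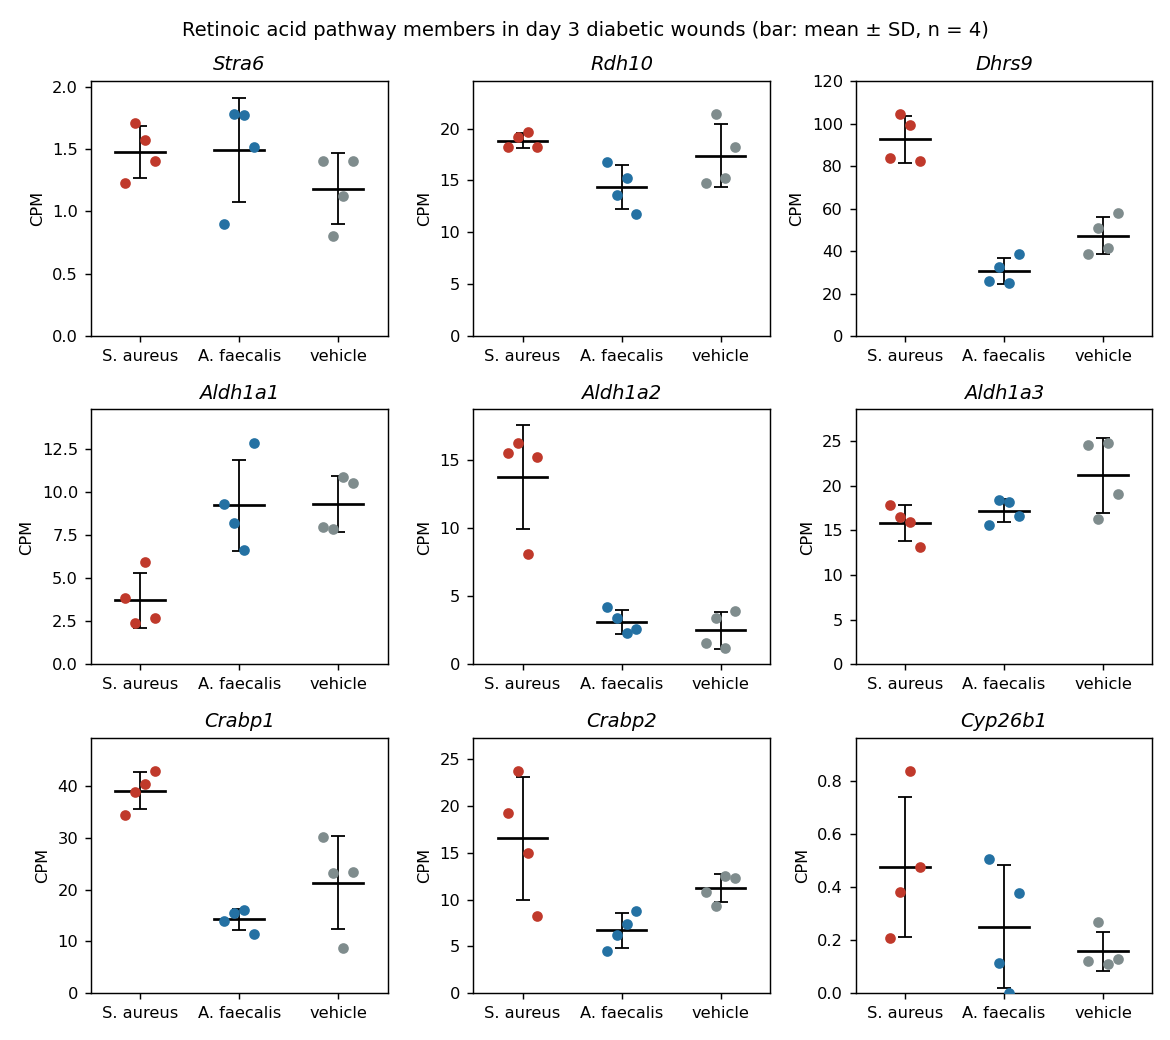
Level of each of the 9 genes in CPM (y axes, each from 0) in the 4 libraries per group (x axes), with points for libraries, a long bar for the mean and whiskers for the SD. The S. aureus points of Dhrs9 and Aldh1a2 lie above, and those of Aldh1a1 below, every vehicle and A. faecalis point, while those of Stra6 and Aldh1a3 overlap with both.

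Of the 8 members other than Aldh1a2, S. aureus against vehicle called 2, where 6.84% of all genes were called. Dhrs9 was higher, as were 3.87% of all genes, and Aldh1a1 lower, as were 2.97%. S. aureus against A. faecalis called 4 of these 8, where 12.7% of all genes were called. Dhrs9, Crabp1 and Crabp2 were higher, as were 7.62% of all genes, and Aldh1a1 was lower, as were 5.06%. A. faecalis against vehicle called 0 of 9 by edgeR, by DESeq2 and by limma-voom, where edgeR called 0.011% of all genes. In that comparison 2 of 9 members, Dhrs9 and Crabp2, had an unadjusted p under 0.05, which 7.68% of all genes had. Groups did not overlap in 4 of 9 members between S. aureus and vehicle (15.1% of all genes), in 5 of 9 between S. aureus and A. faecalis (23.3%) and in 2 of 9 between A. faecalis and vehicle (4.05%). The counts of 4 and of 5 both include Aldh1a2, which was chosen by its S. aureus level, so both are descriptions from which nothing is read. Because the members were chosen with earlier results of these data known, the counts of called members are descriptions too. The comparisons share libraries and are not independent of each other. In bulk tissue, fewer cells of a type and less RNA per cell cannot be told apart.

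**Figure D2:**
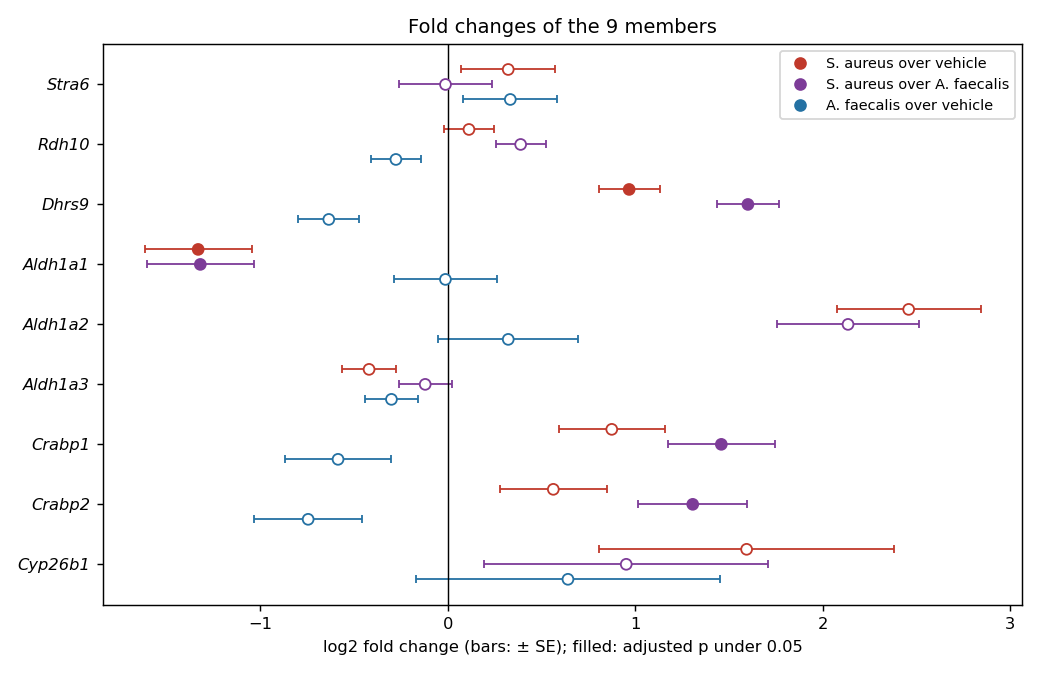
Log2 fold change (x axis, whiskers ± SE) of each member (y axis) for S. aureus over vehicle, S. aureus over A. faecalis and A. faecalis over vehicle, with filled points for an adjusted p under 0.05. Both S. aureus points of Aldh1a2 are drawn hollow because the gene was chosen for its S. aureus level; Dhrs9 and Aldh1a1 are filled in both S. aureus comparisons and Crabp1 and Crabp2 in the comparison with A. faecalis.

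Aldh1a2, also known as RALDH2, is the main retinoic acid producing enzyme of the embryo and is also made by some dendritic cells, macrophages and mesothelial cells. It was at 15.6, 16.3, 8.10 and 15.2 CPM in S. aureus replicates 1 to 4, against 4.23, 3.43, 2.28 and 2.61 CPM in A. faecalis wounds and 1.54, 3.41, 1.20 and 3.92 CPM in vehicle wounds. All 4 S. aureus libraries lay above every other library, and replicate 3 lay well below the other 3 of its group. The log2 fold change was 2.46 (SE 0.384) for S. aureus over vehicle and 2.13 (SE 0.378) for S. aureus over A. faecalis, both given without a test. Over the 12 fits that each left out 1 library, the value over vehicle ranged from 2.24 to 2.76. A. faecalis and vehicle overlapped, with a log2 fold change of 0.32 (edgeR adjusted p = 0.835, SE 0.373).

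Markers of cell types known for Aldh1a2, and of neutrophils, were measured beside it. Of all genes, 6.84% were called with S. aureus against vehicle and 12.7% with S. aureus against A. faecalis. Dendritic and Langerhans cell markers (8 genes) summed to 63.4 to 68.0 CPM in S. aureus wounds, 52.5 to 61.9 CPM in A. faecalis wounds and 54.7 to 83.9 CPM in vehicle wounds, with 0 of 8 called against vehicle and 1, Ccr7, higher with S. aureus against A. faecalis. Monocyte and macrophage markers (9 genes) summed to 4670 to 5860 CPM, 5270 to 8330 CPM and 3980 to 7580 CPM in the same 3 groups, with 0 higher and 1, Emr1, lower with S. aureus against vehicle and 2, Csf1r and Emr1, lower against A. faecalis. The 4 mesothelial markers were near 0, at a sum of 1.52 to 2.37 CPM in S. aureus wounds, 1.40 to 1.99 CPM in A. faecalis wounds and 1.09 to 2.35 CPM in vehicle wounds. Of these, Msln had no count in any S. aureus or A. faecalis library, while Wt1 and Lrrn4 had counts in all 12 libraries. Lrrn4 was at 0.731 to 1.29 CPM with S. aureus, 0.355 to 0.712 with A. faecalis and 0.221 to 0.984 with vehicle. Wt1 was at 0.684 to 1.35 CPM, 0.761 to 1.04 CPM and 0.789 to 1.23 CPM in the same 3 groups. None of the 3 mesothelial genes tested was called in any comparison. Neutrophil markers (7 genes) summed to 9360 to 14900 CPM in S. aureus wounds, 1780 to 4210 CPM in A. faecalis wounds and 718 to 8810 CPM in vehicle wounds. S100a8 and S100a9 made up most of each sum. Of the 7 neutrophil genes, 5 were called higher with S. aureus against A. faecalis and 0 against vehicle, where the median log2 fold change of the 7 was 1.51. Within the S. aureus group the sum was highest in replicate 3, at 14870 CPM, the library lowest in Aldh1a2. Within the A. faecalis group it was lowest in replicate 1, the library highest in Aldh1a2. Within the vehicle group the 2 ran the same way. There the sum was highest in replicate 4, at 8809 CPM, the vehicle library highest in Aldh1a2. It was lowest in replicate 3, at 718 CPM, the vehicle library lowest in Aldh1a2. The part of these markers in the differences of Aldh1a2 and of the other members was not tested.

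Aldh1a1 encodes retinaldehyde dehydrogenase 1, which makes retinoic acid in many adult epithelia and in fat. It was at 3.84, 2.40, 5.92 and 2.72 CPM in S. aureus wounds, against 9.28, 8.20, 6.64 and 12.9 CPM in A. faecalis wounds and 7.95, 7.85, 10.9 and 10.5 CPM in vehicle wounds. Every S. aureus library lay below every library of the other 2 groups, which overlapped with each other. Aldh1a1 fell with S. aureus by 1.33 on the log2 scale against vehicle (edgeR adjusted p = 0.024, SE 0.285) and by 1.32 against A. faecalis (adjusted p = 0.0123, SE 0.285). The call against vehicle was lost without S. aureus replicate 2 (adjusted p = 0.0601) or 4 (adjusted p = 0.0696), and when only these 2 groups entered the edgeR fit (adjusted p = 0.0566). A. faecalis over vehicle gave a log2 fold change of -0.01 (edgeR adjusted p = 0.996, SE 0.276). Of the Aldh1a1 stretches of 31 bases, 5.7% also occur in its paralog Aldh1a7, so a part of the reads could be divided between these genes by the authors' counting. Aldh1a7 itself was at 12.3 ± 6.08 CPM in S. aureus wounds, 23.3 ± 6.15 CPM in A. faecalis wounds and 29.8 ± 23.2 CPM in vehicle wounds (SD, n = 4), and was not called. Adipocyte markers (8 genes) summed to 1390 to 2370 CPM in S. aureus wounds, 2120 to 3320 CPM in A. faecalis wounds and 1980 to 8120 CPM in vehicle wounds, and none was called in any comparison. With S. aureus against vehicle their median log2 fold change was -1.19, and 7 of 8 had an unadjusted edgeR p under 0.05, as had 27% of all genes. With S. aureus against A. faecalis the median was -0.48, and 0 of 8 had such a p, as had 28.2% of all genes. With A. faecalis against vehicle it was -0.75, with 1 of 8, beside 7.68% of all genes. Without vehicle replicate 3, the library highest in these markers, the log2 fold change of Aldh1a1 was -1.23 against vehicle (edgeR adjusted p = 0.0425) and -1.31 against A. faecalis (adjusted p = 0.0105). The part of the adipocyte markers in the Aldh1a1 values was not tested.

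Aldh1a3, the third enzyme of the group, is known from epidermis and other epithelia. It spanned 13.1 to 17.8 CPM in S. aureus wounds, 15.6 to 18.3 CPM in A. faecalis wounds and 16.3 to 24.8 CPM in vehicle wounds. The groups overlapped, and the log2 fold change of S. aureus over vehicle was -0.42 (edgeR adjusted p = 0.0874, SE 0.142). Without vehicle replicate 2, its lowest vehicle library, the value was -0.51 and was called (adjusted p = 0.0411). Against A. faecalis the S. aureus value was -0.12 (adjusted p = 0.624, SE 0.142).

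Levels of the 3 ALDH1A genes can be set beside each other per length, here CPM per kb of the principal GENCODE transcript. On this scale their sum was 12.3 ± 1.33 with S. aureus, 10.3 ± 0.945 with A. faecalis and 11.2 ± 1.19 with vehicle (SD, n = 4), with overlapping ranges. Aldh1a2 made up 50.3%, 55.4%, 33.4% and 57.5% of the sum in S. aureus replicates 1 to 4, against 10.1% to 18.1% with A. faecalis and 4.29% to 15.8% with vehicle. Aldh1a1 made up 7.83% to 23.4% with S. aureus, 30.9% to 47.7% with A. faecalis and 30.2% to 38.03% with vehicle. Aldh1a3 had the largest share in 3 of the 4 A. faecalis libraries and in all 4 vehicle libraries, and Aldh1a2 in 3 of the 4 S. aureus libraries. The ratio of Aldh1a2 to Aldh1a1 was 4.22, 7.07, 1.43 and 5.83 with S. aureus and below 0.5 in the 8 other libraries. These shares contain the chosen gene and carry no test.

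**Figure D3:**
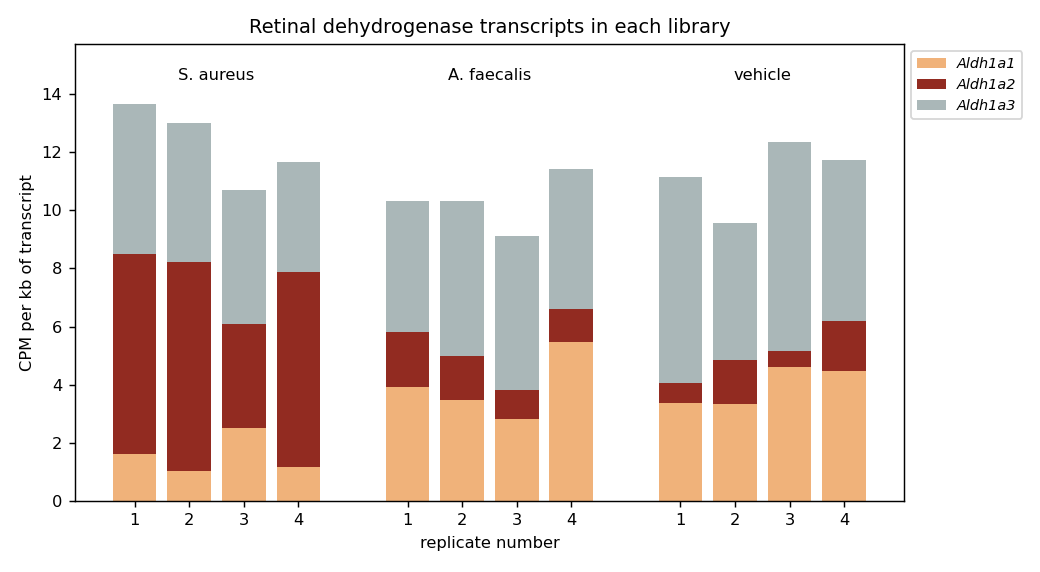
Stacked bars of Aldh1a1, Aldh1a2 and Aldh1a3 in CPM per kb of transcript (y axis) in each library (x axis, replicate number within group). The summed height stays between 9.11 and 13.7 CPM per kb in all 12 libraries, while the Aldh1a2 segment is tallest in the S. aureus libraries, with replicate 3 the shortest of those.

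The steps before retinal were covered by Stra6, Rdh10 and Dhrs9. Stra6, the membrane receptor for the retinol carrier RBP4, was low in all libraries, at 1.23 to 1.71 CPM in S. aureus wounds, 0.896 to 1.78 CPM in A. faecalis wounds and 0.805 to 1.41 CPM in vehicle wounds. Its groups overlapped and no comparison called it, with log2 fold changes of 0.32 for S. aureus over vehicle and 0.33 for A. faecalis over vehicle. Rdh10, the main retinol dehydrogenase of embryonic retinoic acid synthesis, was at 18.2, 19.2, 19.7 and 18.2 CPM in S. aureus wounds, against 16.8, 13.6, 15.2 and 11.8 CPM in A. faecalis wounds and 14.8, 21.4, 15.3 and 18.2 CPM in vehicle wounds. The S. aureus libraries lay above all A. faecalis libraries and inside the vehicle range. Rdh10 missed the threshold for S. aureus over A. faecalis (edgeR adjusted p = 0.0769, log2 fold change 0.39, SE 0.134). It was called there by DESeq2 (adjusted p = 0.038), in a fit of only these 2 groups (0.0414) and without A. faecalis replicate 1 (0.0478).

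Dhrs9 encodes a dehydrogenase that acts on retinol and on some steroids, and is known from epithelia and from some macrophages. It was at 83.9, 105, 99.6 and 82.6 CPM in S. aureus wounds, against 26.0, 32.6, 25.1 and 38.5 CPM in A. faecalis wounds and 38.8, 51.1, 41.6 and 58.0 CPM in vehicle wounds. None of the 3 groups overlapped with another, S. aureus standing highest and A. faecalis lowest. Dhrs9 rose with S. aureus by a log2 ratio of 0.97 against vehicle (edgeR adjusted p = 0.0107, SE 0.162) and of 1.60 against A. faecalis (adjusted p = 0.000713, SE 0.165). Both calls held in each of the 12 fits with 1 library left out, with adjusted p up to 0.0357 against vehicle and up to 0.0037 against A. faecalis. For A. faecalis over vehicle the log2 fold change was -0.63 (SE 0.162) and missed the threshold (adjusted p = 0.411 by edgeR, unadjusted p = 0.00209). All 4 A. faecalis values there were below all 4 vehicle values.

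Both cytosolic binding proteins were called in the comparison of the bacteria with each other. Crabp1, known in skin from dermal fibroblasts and the dermal papilla, was at 34.4, 38.8, 40.4 and 42.9 CPM in S. aureus wounds, against 13.9, 15.5, 16.1 and 11.3 CPM in A. faecalis wounds and 30.1, 23.3, 8.66 and 23.3 CPM in vehicle wounds. The S. aureus libraries were above all others, and vehicle replicate 3 was the lowest library of all. Crabp1 rose with S. aureus against A. faecalis by a log2 ratio of 1.46 (edgeR adjusted p = 0.00782, SE 0.286). Against vehicle its log2 fold change of 0.88 (SE 0.282) missed the threshold (adjusted p = 0.0766 by edgeR), while DESeq2 called it (adjusted p = 0.019). Without vehicle replicate 3 the value over vehicle was smaller, 0.63, and was called by edgeR (adjusted p = 0.0304). Fibroblast markers (9 genes) summed to 19800 to 25000 CPM in S. aureus wounds, 18300 to 21800 CPM in A. faecalis wounds and 18900 to 30500 CPM in vehicle wounds, sums made up mostly of the collagens Col1a1, Col1a2 and Col3a1. The sums overlapped, but single markers were called. With S. aureus, Pdgfra was higher against A. faecalis, and against vehicle Pdgfra and Thy1 were higher and Dpt lower. Hair follicle and dermal papilla markers (8 genes) summed to 9.40 to 13.8 CPM in S. aureus wounds, 9.69 to 14.5 CPM in A. faecalis wounds and 12.7 to 19.7 CPM in vehicle wounds. Of the 5 tested, 0 were called with S. aureus. Their median log2 fold change was -0.33 over vehicle and -0.19 over A. faecalis. The part of either marker list in the Crabp1 values was not tested.

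Crabp2, known from keratinocytes and as the carrier that brings retinoic acid to its receptors, was at 19.3, 23.7, 14.99 and 8.26 CPM in S. aureus wounds, against 4.45, 6.19, 7.38 and 8.80 CPM in A. faecalis wounds and 10.8, 9.27, 12.5 and 12.3 CPM in vehicle wounds. S. aureus replicate 4 was within the A. faecalis range, and the other 3 were above all libraries of both other groups. Crabp2 rose with S. aureus against A. faecalis by a log2 ratio of 1.31 (edgeR adjusted p = 0.0137, SE 0.29), a call that held in all 12 fits with 1 library left out (adjusted p up to 0.0421). The log2 fold change was 0.56 (adjusted p = 0.228, SE 0.285) for S. aureus over vehicle. For A. faecalis over vehicle it was -0.74 (adjusted p = 0.597, SE 0.287, unadjusted p = 0.0242), with all A. faecalis libraries below all vehicle libraries. Basal keratinocyte markers (6 genes) summed to 1707, 2375, 1195 and 930 CPM in S. aureus replicates 1 to 4, replicate 4 again being the lowest. The sums were 713 to 1160 CPM in A. faecalis wounds and 1200 to 1890 CPM in vehicle wounds. Krt14 and Krt5 made up most of each sum. None of the 6 was called in any comparison. With A. faecalis against vehicle the median log2 fold change of the 6 was -0.73, and 5 of 6 had an unadjusted edgeR p under 0.05, as had 7.68% of all genes. With S. aureus their median was -0.23 over vehicle, where Crabp2 was at 0.56, and 0.38 over A. faecalis, where Crabp2 was at 1.31. The part of these markers in the Crabp2 values was not tested.

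Cyp26b1, the enzyme that hydroxylates retinoic acid for removal, was close to the limit of detection. Its estimated counts were 8.01, 22.1, 32.9 and 24.9 with S. aureus, against 29.7, 7.72, 0 and 15.99 with A. faecalis and 7.37, 14.2, 7.23 and 6.53 with vehicle. These correspond to 0.209 to 0.838 CPM, 0 to 0.507 CPM and 0.11 to 0.268 CPM in the same 3 groups. The groups overlapped, and the log2 fold change of 1.59 for S. aureus over vehicle had an SE of 0.787 (adjusted p = 0.217 by edgeR). Differences of this gene were not resolved at this depth. All 9 members passed the low-count filter, Cyp26b1 through the libraries with the higher of these counts.

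Per kb of principal transcript, the order of vehicle levels was Crabp1 at 26.6 ± 11.3 CPM per kb, Crabp2 at 12.03 ± 1.60, Dhrs9 at 11.1 ± 2.06, Aldh1a3 at 6.14 ± 1.22, Rdh10 at 4.85 ± 0.85, Aldh1a1 at 3.94 ± 0.688, Aldh1a2 at 1.11 ± 0.595, Stra6 at 0.384 ± 0.0928 and Cyp26b1 at 0.0349 ± 0.0166 (SD, n = 4). Neighbours from Crabp1 down to Aldh1a1 overlapped in their vehicle ranges, apart from Dhrs9 and Aldh1a3, and the steps from Aldh1a1 to Aldh1a2, on to Stra6 and on to Cyp26b1 did not overlap. With S. aureus, Aldh1a2 was at 6.09 ± 1.69 CPM per kb, beside Aldh1a3 at 4.60 ± 0.574 and Rdh10 at 5.25 ± 0.203. Their ranges overlapped through replicate 3, where Aldh1a2 was at 3.58 CPM per kb. In replicates 1, 2 and 4 it was at 6.88, 7.19 and 6.72. Those values lay above every S. aureus value of Aldh1a3 (up to 5.17) and Rdh10 (up to 5.48).

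The wider vitamin A pathway was read from 71 genes in 7 lists, of which 62 are no members and 58 of those were tested. These lists too were chosen with earlier results of these data known, so their counts are descriptions. With S. aureus against vehicle, 7 of the 58 rose and 2 fell, where 6.84% of all genes were called, and their median log2 fold change was -0.23, beside -0.04 over all genes tested. Against A. faecalis, 8 rose and 4 fell with S. aureus, where 12.7% of all genes were called, with a median of -0.08 beside -0.02. With A. faecalis against vehicle 0 were called, by edgeR, DESeq2 or limma-voom, 4 had an unadjusted edgeR p under 0.05, as had 7.68% of all genes, and the median was -0.13 beside -0.03. Single libraries moved these counts. Against vehicle, 2 genes were called without S. aureus replicate 3 or 4, 4 without S. aureus replicate 2, vehicle replicate 3 or A. faecalis replicate 2 or 3, and 5 without A. faecalis replicate 4. Against A. faecalis, 22 were called without vehicle replicate 3, 7 without S. aureus replicate 1, 2 or 3, and 6 without A. faecalis replicate 2, 3 or 4.

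Of the vitamin A uptake and storage genes (13 tested), those that rose with S. aureus against vehicle included Dgat1. Dgat1, an acyltransferase of triglyceride synthesis that can also esterify retinol, was at 195, 265, 324 and 292 CPM in S. aureus wounds, against 80.1, 65.2, 54.8 and 57.9 CPM in A. faecalis wounds and 49.4, 123, 99.8 and 146 CPM in vehicle wounds. It rose by a log2 ratio of 1.36 against vehicle (edgeR adjusted p = 0.0209, SE 0.28) and of 2.06 against A. faecalis (adjusted p = 0.00176, SE 0.286). Its call against vehicle was lost without S. aureus replicate 3 or 4 (adjusted p up to 0.0699) and in the fit of only these 2 groups (0.0632). Rbp2, a retinol carrier best known from the intestine, was called higher with S. aureus against A. faecalis. It was at 16.5, 19.6, 8.03 and 7.56 CPM in S. aureus wounds, 4.14, 6.32, 7.41 and 7.12 CPM in A. faecalis wounds and 12.5, 9.87, 7.81 and 9.45 CPM in vehicle wounds. Replicates 3 and 4 of S. aureus lay just above the highest A. faecalis library, and replicate 4 below all vehicle libraries. All A. faecalis libraries lay below all vehicle libraries. The call against A. faecalis (edgeR adjusted p = 0.0469) was lost in 8 of the 12 fits with 1 library left out. Over vehicle the S. aureus log2 fold change was 0.38 (edgeR adjusted p = 0.454).

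Among the enzymes that interconvert retinol and retinal (19 tested), Dhrs9 and Rdh12 rose and Adh1 and Dhrs3 fell with S. aureus against vehicle. Rdh12, a retinal reductase best known from photoreceptors, was at 145, 245, 310 and 282 CPM in S. aureus wounds, against 30.0, 45.1, 23.97 and 46.5 CPM in A. faecalis wounds and 26.2, 85.5, 19.8 and 123 CPM in vehicle wounds. All S. aureus libraries were above the other 8. Rdh12 rose by a log2 ratio of 2.75 against A. faecalis (edgeR adjusted p = 0.00749, SE 0.535), a call kept in all 12 fits with 1 library left out. Against vehicle its log2 fold change was 1.95 (adjusted p = 0.0457, SE 0.519), a call that 10 of the 12 lost. Dhrs3, which reduces retinal back to retinol, fell to 88.5 ± 7.45 CPM in S. aureus wounds, against 126 ± 2.92 CPM in A. faecalis wounds (adjusted p = 0.0495) and 137 ± 37.0 CPM in vehicle wounds (adjusted p = 0.0348). The call against A. faecalis was lost in 10 and that against vehicle in 8 of the 12 fits. Adh1, an alcohol dehydrogenase that also takes retinol, fell to 9.47 ± 4.59 CPM in S. aureus wounds, against 22.3 ± 4.63 CPM in A. faecalis wounds (adjusted p = 0.0444) and 24.5 ± 12.2 CPM in vehicle wounds (adjusted p = 0.0442). The call against A. faecalis was lost in 7 and that against vehicle in 9 of the 12 fits, vehicle replicate 3 being the highest library at 42.6 CPM. Adh5 fell against A. faecalis, by 0.25 on the log2 scale (adjusted p = 0.0335), a call lost in 8 of the 12.

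Beside the ALDH1A enzymes, 4 other genes of the retinal oxidation list were tested, and of these only Cyp1b1 was called. With S. aureus over vehicle, Aox1 (-0.95), Aldh8a1 (-0.34) and Aldh1a7 (-1.28) had log2 fold changes below 0. They were not called (edgeR adjusted p = 0.0643, 0.0956 and 0.113). Each had an unadjusted edgeR p under 0.05, as had 27% of all genes. Over A. faecalis the values were -0.72, -0.04 and -0.93, also not called. Cyp1b1, a cytochrome P450 of fibroblasts and other stromal cells, was at 286, 257, 261 and 239 CPM in S. aureus wounds, against 164, 159, 155 and 160 CPM in A. faecalis wounds and 164, 184, 108 and 131 CPM in vehicle wounds. It rose by a log2 ratio of 0.83 against vehicle (edgeR adjusted p = 0.0107, SE 0.138) and of 0.71 against A. faecalis (adjusted p = 0.00742, SE 0.138). Both calls held in all 12 fits with 1 library left out. Of the other CYP26 enzymes, Cyp26c1 was tested and not called, at 0.534 ± 0.113 CPM in S. aureus wounds, 0.476 ± 0.0609 CPM in A. faecalis wounds and 0.538 ± 0.111 CPM in vehicle wounds. Cyp26a1 did not pass the low-count filter, with 0.156 ± 0.0764 CPM, 0.0877 ± 0.0422 CPM and 0.106 ± 0.039 CPM in the same 3 groups.

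None of 13 receptors and receptor partners was called in any comparison by edgeR or limma-voom, and DESeq2 called 1, Rxrg, with S. aureus against vehicle. There DESeq2 called 2876 genes in all and edgeR 1246. Rxrg was lower with S. aureus, at 2.35 ± 1.03 CPM against 6.45 ± 4.96 CPM with vehicle. Its edgeR log2 fold change was -1.46 (adjusted p = 0.0658), and its vehicle libraries spanned 3.16 to 13.8 CPM. Unadjusted edgeR p-values under 0.05 numbered 3 of 13 for S. aureus against vehicle (27% of all genes), 2 of 13 for S. aureus against A. faecalis (28.2%) and 0 of 13 for A. faecalis against vehicle (7.68%). Rara, a retinoic acid receptor, was at 115 ± 14.8 CPM in S. aureus wounds, 84.9 ± 6.78 CPM in A. faecalis wounds and 88.5 ± 25.7 CPM in vehicle wounds (adjusted p = 0.194 for S. aureus over vehicle). Rarg, the main such receptor of epidermis, was at 55.2 ± 7.90 CPM, 54.4 ± 3.70 CPM and 57.5 ± 2.91 CPM in the same 3 groups. Rarb, itself a well known target of retinoic acid, was at 2.51 ± 0.723 CPM, 2.16 ± 0.572 CPM and 2.19 ± 0.563 CPM, with overlapping groups.

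Of genes known to respond to retinoic acid (18 tested, members and Rarb included), S. aureus against vehicle called 4 as higher, Rai14, Tgm2 and Rarres2 among them, and 1 as lower, Dhrs3, beside 6.84% of all genes called. Tgm2, tissue transglutaminase, was at 629, 635, 787 and 821 CPM in S. aureus wounds, against 459, 476, 401 and 423 CPM in A. faecalis wounds and 407, 481, 405 and 544 CPM in vehicle wounds. It rose by a log2 ratio of 0.64 against vehicle (edgeR adjusted p = 0.0181, SE 0.128; lost without S. aureus replicate 3 or 4, up to 0.0633, and in the fit of only these 2 groups, 0.0591). Against A. faecalis it rose by 0.71 (adjusted p = 0.00524, SE 0.128). Rai14, an actin-binding protein, rose by 0.89 against vehicle (adjusted p = 0.00791, SE 0.131) and 0.84 against A. faecalis (adjusted p = 0.00267, SE 0.131), and kept both calls in all 12 fits with 1 library left out. Rarres2, which encodes the chemoattractant chemerin, rose by 0.46 against vehicle (adjusted p = 0.0416), lost in 9 of the 12 fits and under upper-quartile scaling (0.0578). Against A. faecalis, 5 of the 18 were higher with S. aureus, among them Rai14, Tgm2, Rarres2 and Crabp2. The lower ones were 2, Dhrs3 and Cd38, beside 12.7% of all genes called. Cd38, an NAD-consuming ectoenzyme of immune cells, was at 198 ± 13.9 CPM in S. aureus wounds, 437 ± 94.6 CPM in A. faecalis wounds and 246 ± 112 CPM in vehicle wounds. Its S. aureus level was below the A. faecalis level by 1.14 on the log2 scale (edgeR adjusted p = 0.0279, SE 0.298). That call was lost in 7 of the 12 fits. Against vehicle Cd38 was not called. Its log2 fold change there was -0.31 for S. aureus (edgeR adjusted p = 0.535) and 0.83 for A. faecalis (edgeR adjusted p = 0.565). Many of these genes also answer to other signals, and some are made by the cell types whose markers are given above.

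**Figure D4:**
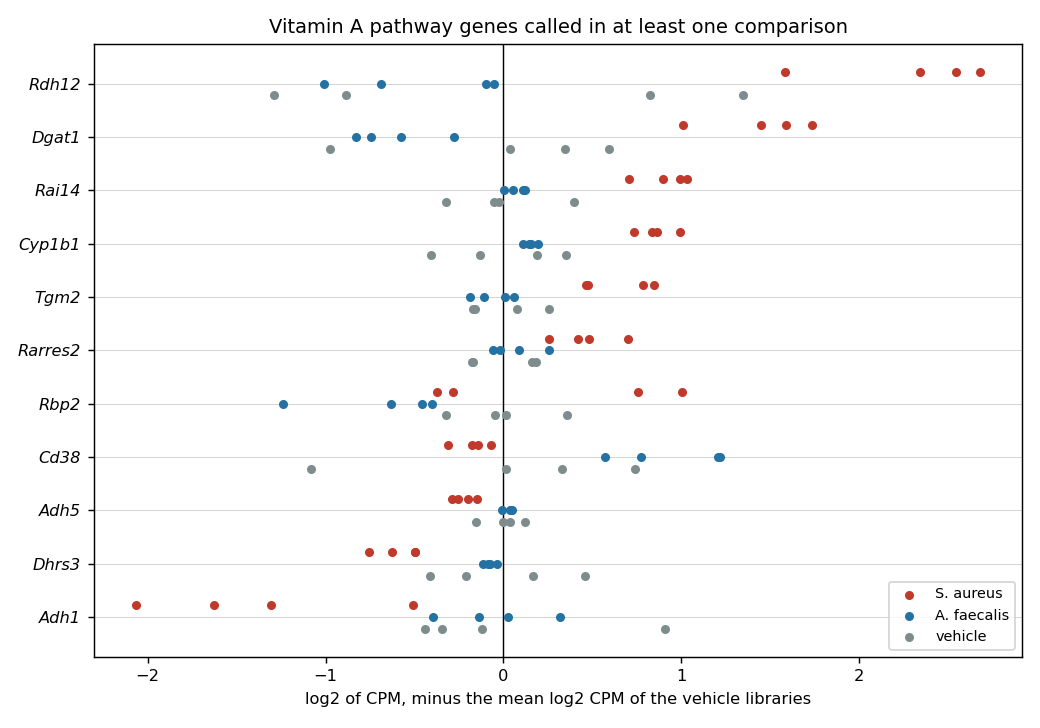
Log2 CPM of each library minus the mean log2 CPM of the vehicle libraries (x axis) for 11 of the 12 pathway genes outside the 9 that were called in at least 1 comparison (y axis), with 4 points per group. The S. aureus points of Rdh12, Dgat1, Rai14 and Cyp1b1 lie to the right of all A. faecalis and vehicle points, while the vehicle points of Rdh12 and Cd38 spread widely.

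Genes whose log2 CPM followed a member most closely over the 12 libraries were ranked by Pearson correlation, as a description, since the libraries fall into 3 groups and share a spread in cell content. Closest to Aldh1a2 were Irs2 (r = 0.955), an insulin receptor substrate, Gcnt2 (0.948), a glycosyltransferase, Cemip (0.943), a hyaluronan-degrading protein, Car4 (0.941), a carbonic anhydrase, and Tnfsf11 (0.939), the cytokine RANKL. After subtracting group means these 5 values were 0.73 to 0.841, in the same libraries that ranked the genes, so they are no separate support. Tnfsf11 averaged 6.94 CPM in S. aureus wounds, 1.49 CPM in A. faecalis wounds and 1.59 CPM in vehicle wounds. Closest to Dhrs9 were Slc26a4 (r = 0.97), the anion exchanger pendrin, and Stac2 (0.965), and closest to Crabp1 were Gpr153 (0.969) and Kif26b (0.968). Crabp2 followed the epidermal kallikreins Klk10 and Klk6 (both 0.969), Aldh1a1 followed Golph3l (0.909), and Aldh1a3 followed the desmosomal gene Dsg2 (0.936) and St6gal2 (0.934). Rdh10 came closest to Sox30 (0.893) and THAP6 (0.886), Cyp26b1 to Bbs12 (0.863) and Cdk2 (0.821), and Stra6 to Eif4a-ps4 (0.827) and Ankrd53 (0.816), the last 2 members having low counts. Among the members, Aldh1a2 and Aldh1a1 ran opposite over the 12 libraries (r = -0.85, and -0.33 after subtracting group means). Crabp1 and Crabp2 had r = 0.52, and -0.27 after group means were subtracted.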

How the data were processed

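RNA of day 3 wound skin from 12 mice was measured in 3 groups of 4, and each library was read as 1 mouse per the series design text. The deposited table holds estimated counts per gene made by the authors. The submitters' processing notes name kallisto 0.48.0, FastQC 0.12.1, R 4.1.3, DESeq2 1.34.0 and build GRCm39, without the role of each. The library kit keeps strand, per the labels; the sources used here do not give the summing of transcripts to genes or the strand setting. Kallisto divides reads shared by similar transcripts.

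The 1 row with no gene name (0.00909% to 0.0151% of a library) was left out. Counts were rounded to whole numbers. Genes were kept with filterByExpr (minimum count 10, minimum total 15), leaving 18218, scaled by TMM and fitted over all 12 libraries with a mean per group in edgeR 4.0.16 (R 4.3.3), robust quasi-likelihood. The SE is the absolute log2 fold change over the square root of F. Replicate pairs within a group differed by a chi-square of 28.0 to 459.6 per degree of freedom, so none looked like 1 library deposited under 2 names. The procedure was tested on simulated data.

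Transcript lengths and shared stretches of 31 bases came from GENCODE M21 (build GRCm38), using an APPRIS principal transcript for each gene. Of the list genes, 2 were found under older names. The members and lists were chosen with earlier results of these data known. Named genes are the 9 members, the pathway genes called in at least 1 comparison, and the 5 genes closest to Aldh1a2 and 2 closest to each other member with a standard symbol; 1 pathway gene and 1 gene closest to Aldh1a1 are not reported here. Retinoic acid receptors, Rxrg, Aldh1a7, Aox1, Aldh8a1, Fabp5 and the other CYP26 genes were named after their values were seen. Alternatives were DESeq2 size factors, upper-quartile scaling, DESeq2 1.42.0, limma-voom (limma 3.58.1), no filter, a mean of at least 1 CPM, only the 2 groups compared, a block for replicate number, and leaving out each library.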

Additional observations from a re-analysis of the deposited data

Results flagged for a closer look

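In a group of 4, a library was marked when its gap to the nearest other library took most of the range (Dixon's test at 95%). Over 63 groups, the 9 members and the 12 called pathway genes in 3 groups each, 3 were marked, and chance marks about 1 in 20. Aldh1a2 in S. aureus replicate 3 stood at 8.10 CPM, its group otherwise spanning 15.2 to 16.3 CPM. Cyp26b1 in vehicle replicate 2 stood at 0.268 CPM, its group otherwise spanning 0.11 to 0.127 CPM, a difference of a few counts. Adh1 in vehicle replicate 3, the library rich in adipocyte markers, stood at 42.6 CPM, its group otherwise spanning 16.7 to 20.8 CPM.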

How the results depend on the processing

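Dhrs9 kept its direction and its calls with S. aureus in every alternative and with each library left out, and so did Crabp1, Crabp2 and Aldh1a1 in S. aureus against A. faecalis. With S. aureus against vehicle, 1 of the 8 other members was called in the fit of only the 2 groups, and 1 to 3 with a library left out. Against A. faecalis, 4 to 5 were called with a library left out. With A. faecalis against vehicle 0 of 9 members and 0 pathway genes were called in any alternative.

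Called pathway genes outside the 9 numbered 9 with S. aureus against vehicle. They numbered 18 with DESeq2 (7 higher), 2 in the fit of only the 2 groups and 2 to 13 with a library left out. Against A. faecalis they numbered 12, and 7 with no filter, 19 in the fit of only the 2 groups, and 6 to 22 with a library left out. The cause was not tested. Over the whole table, S. aureus against vehicle called 1246 genes, 2876 by DESeq2, 350 in the fit of only the 2 groups and 260 to 1750 with a library left out. A. faecalis against vehicle called 2, and 120 by DESeq2 and 2 to 10 with a library left out. S. aureus against A. faecalis called 2310, and 3474 by DESeq2 and 1313 to 3457 with a library left out.

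Values near 0 changed sign. For A. faecalis over vehicle, Aldh1a1 was at 0.00405 among genes of at least 1 CPM and 0.00958 with the replicate number as a block, and -0.21 to 0.13 with a library left out. Cyp26b1 was at -0.48 with limma-voom and -0.0249 to 1.09 with a library left out, the lowest without A. faecalis replicate 1. Stra6 in S. aureus over A. faecalis was at 0.000285 with DESeq2, 0.034 with limma-voom, 0.00274 with the replicate block, and -0.18 to 0.0915 with a library left out.

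Same-numbered libraries were not shown to be paired. Their deviations from the group means correlated from -0.21 to 0.08 between S. aureus and vehicle, 0.07 to 0.182 between A. faecalis and vehicle and -0.14 to 0.024 between the bacteria. With the number as a block, S. aureus against vehicle called the 2 members called without it, and 1038 genes in all. The split of higher and lower genes moved with scaling, from 56.6% higher to 47.7% under upper-quartile scaling in S. aureus against vehicle and from 60.1% to 51.9% against A. faecalis, while the members called were the same.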
